A study of Mus musculus with 2 samples.

Results

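Of 20222 hypothalamic microglia in 2 droplet libraries, 90 carried at least 3 transcript molecules of a set of 9 genes that cells make when they divide, and these 90 cells are described here as mitotic microglia. A cell entered when its summed raw count over Top2a, Mki67, Cdk1, Ccnb1, Ccnb2, Birc5, Ube2c, Cenpf and Cenpe reached 3 unique molecular identifiers (UMIs, the tags that count single captured RNA molecules). The plasma-negative library gave 26 of 9860 cells and the plasma-positive library 64 of 10362 cells. The reference was the cells with 0 UMIs of the same 9 genes, 9671 plasma-negative and 10024 plasma-positive, and a further 163 and 274 cells lay between with 1 or 2 UMIs. Because the members were chosen by measured counts, every difference between them and the 0-UMI cells is given as a description, without a test.

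The cells came from the hypothalamus of young wild-type mice that had all been injected with plasma protein carrying a dye, and several mice were pooled. Microglia were taken 20 hours later by fluorescence-activated sorting, which separated cells that carried the dye (plasma-positive) from cells that did not (plasma-negative). Each sort gave 1 library, made with the Chromium 3' kit v3.1, so no difference between the sorts has a replicate check and no p-value was computed. Strain, sex and exact age were not given in the sources used here. The libraries listed 9878 and 10390 cells with 34549522 and 42006454 UMIs, and the lowest cell totals were 504 and 501 UMIs. Cells with fewer than 500 UMIs, fewer than 300 genes or more than 10% of UMIs from mitochondrially encoded genes were left out. That removed 1 and 0 cells on genes and 17 and 28 cells on the mitochondrial share. All intervals are 95% intervals and cover counting error only.

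Microglia, the resident macrophages of the brain, renew themselves by division within the tissue, and in the healthy adult only a small part of them is dividing at any time. A dividing cell first copies its DNA, with licensing factors, polymerases, nucleotide enzymes and a burst of new histones, and then builds a spindle, attaches chromosomes to it through kinetochores, separates them and splits. Many genes of the later steps are kept off in resting cells and switched on together, and their promoters often carry a cell cycle homology region (CHR) and CCAAT boxes. The rule genes belong to those later steps.

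Within the members the summed count of the 9 rule genes ran from 3 to 88 UMIs in the plasma-negative library (median 11) and from 3 to 125 UMIs in the plasma-positive library (median 16.5). At least 10 UMIs were found in 16 and 38 cells, and 3 to 9 UMIs in 10 and 26 cells. All 9 genes were detected in 4 and 5 cells, at least 4 genes in 15 and 44 cells, and a single gene made up the whole sum in 5 and 5 cells. The members were thus unequal, from cells with the full set to cells that passed on 1 gene. Top2a, Mki67, Cdk1 and Birc5, the 4 markers of the cell type and all part of the rule, were detected together in 9 and 25 cells, and none of them in 3 and 5 cells.

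Levels are given as CPM, the UMIs of a gene per 1000000 UMIs of the cells summed. Each UMI counts 1 molecule near its 3' end, so no correction for gene length applies. Top2a, the topoisomerase that untangles sister DNA, stood at 924 CPM (773 to 1097) in plasma-negative and 945 CPM (852 to 1046) in plasma-positive members and was detected in 17 of 26 and 47 of 64 cells. Mki67, which coats mitotic chromosomes, stood at 931 CPM (779 to 1104) and 857 CPM (768 to 953), in 19 and 48 cells. Each was thus detected in most members of each library. Cenpf, an outer kinetochore protein, followed with 698 and 502 CPM in 18 and 44 cells. Birc5, the survivin subunit of the chromosomal passenger complex, stood at 317 and 318 CPM in 13 and 40 cells. Ube2c, which feeds the anaphase-promoting complex, stood at 402 and 257 CPM, in 9 and 29 cells. Cdk1, the mitotic kinase, stood at 261 and 232 CPM, and Cenpe, a kinetochore motor, at 205 and 250 CPM. The B-type cyclins, which activate Cdk1, were lowest, with Ccnb2 at 190 and 164 CPM and Ccnb1 at 155 and 98.3 CPM. By rule all 9 stood at 0 UMIs in the reference cells.

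The 9 genes were chosen together, and the stretch before their starts was searched for words that genes of late division often share. Promoter windows were read from RefSeq on GRCm38.p6. They ran from 250 bases before to 50 bases after the first listed start of each gene. They were searched on both strands. A CHR was the word TTTGAA, or alternatively the word TTCGAA. The CCAAT word was searched as it stands. An E2F word was the run TTGGCGC, or alternatively the run TTCCCGC. No search word contains another one. Windows with CHR numbered 6 of 9 rule genes, windows with CCAAT 8, windows with both 6 and windows with the E2F word 3. Over all 27025 promoters the shares were 19.4%, 37.9%, 7.70% and 6.93%. Among the rule genes Birc5 held no CHR, CCAAT or E2F word, and Ccnb1 and Cenpe held CCAAT without CHR. Of 95 further mitotic genes that the rule did not use, 76 had a window, and 65.8% of those held CHR, 72.4% CCAAT, 53.9% both and 13.2% the E2F word. A match is a run of letters and was not shown to be a bound site. The 150 bases before the start are printed for 4 of the 9 rule genes and for 2 of the 15 matched genes among the 20 of highest ratio, Cenpm and Kif11. These are the genes whose 150 bases held both CHR and CCAAT. Each is written 5' to 3' along the gene's strand, with CHR and CCAAT words of either strand in capitals.
Top2a, chr11:99024190-99024339, minus strand: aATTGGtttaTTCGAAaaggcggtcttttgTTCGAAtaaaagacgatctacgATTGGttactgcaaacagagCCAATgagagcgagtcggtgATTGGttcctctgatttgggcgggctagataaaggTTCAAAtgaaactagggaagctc
Mki67, chr7:135716380-135716529, minus strand: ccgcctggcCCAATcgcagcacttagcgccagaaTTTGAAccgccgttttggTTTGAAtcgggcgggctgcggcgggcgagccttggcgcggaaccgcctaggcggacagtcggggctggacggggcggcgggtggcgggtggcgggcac
Cdk1, chr10:69352913-69353062, minus strand: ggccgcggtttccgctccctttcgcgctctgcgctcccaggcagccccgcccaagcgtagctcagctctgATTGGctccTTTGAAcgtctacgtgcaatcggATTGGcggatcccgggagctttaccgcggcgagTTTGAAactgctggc
Ube2c, chr2:164769779-164769928, plus strand: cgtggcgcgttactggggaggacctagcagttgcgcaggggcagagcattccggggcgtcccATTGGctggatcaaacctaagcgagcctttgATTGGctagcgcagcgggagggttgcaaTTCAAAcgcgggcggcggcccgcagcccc
Cenpm, chr15:82244337-82244486, minus strand: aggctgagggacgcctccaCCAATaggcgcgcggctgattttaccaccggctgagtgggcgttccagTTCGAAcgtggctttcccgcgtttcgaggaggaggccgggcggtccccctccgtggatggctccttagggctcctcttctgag
Kif11, chr19:37376232-37376381, plus strand: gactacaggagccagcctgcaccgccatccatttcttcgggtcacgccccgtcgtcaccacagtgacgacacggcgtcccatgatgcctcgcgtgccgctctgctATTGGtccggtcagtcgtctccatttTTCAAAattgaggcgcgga
Top2a carried 3 CHR and 4 CCAAT words in this stretch, Mki67 2 and 1, Cdk1 2 and 2, Ube2c 1 and 2, and Cenpm and Kif11 1 and 1. The CHR word nearest to the start lay 23 bases before it in Top2a, 15 in Cdk1, 29 in Ube2c and 19 in Kif11, against 98 in Mki67 and 83 in Cenpm. The nearest CCAAT word lay further from the start than the nearest CHR word in all 6.

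The members carried the microglial label by their markers. Of 10 microglia markers (among them P2ry12, Tmem119, Cx3cr1, Csf1r and Sall1), the median member had 10 in both libraries and the lowest had 6 and 5. All 10 were found in 15 and 37 members. Of 78 markers in 14 lists for other cell types, 64 had 0 UMIs in all 90 members. Neutrophil, T or NK cell, erythroid, oligodendrocyte precursor, neuron, mural and ependymal markers were all at 0. Border macrophage markers gave 1 and 8 UMIs, 9 of them of Mrc1, with Cd163, Lyve1, F13a1, Pf4, Cbr2, Ms4a7 and Clec12a at 0. Their summed level was 7.05 and 20.2 CPM, against 3.53 and 5.86 CPM in the 0-UMI cells. Monocyte markers summed to 21.2 and 32.8 CPM, against 3.74 and 3.47 CPM. Of these 3 and 13 UMIs, 11 were Plac8, and Ly6c2 and Chil3 were at 0. Nes, on the neural progenitor list, gave 19 UMIs, with up to 10 UMIs of that list in 1 cell, while Sox2 and Dcx were at 0. No member held 2 or more markers of one other type except for oligodendrocytes, where 1 and 3 members did, against 132 and 179 of the 0-UMI cells. The part of these transcripts in the results was not tested.

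Members were deeper than the reference. Their median total was 4753.5 UMIs (910 to 11946) in the plasma-negative and 5315.5 UMIs (880 to 16106) in the plasma-positive library, against 3259 and 3727.5 UMIs in 0-UMI cells. A deeper cell has more chances to reach 3 UMIs, and that and a larger RNA content of dividing cells cannot be told apart here. The median mitochondrial share was 1.23% and 1.65%, against 1.08% and 1.27%. In 4 plasma-positive members ribosomal protein genes took under 2% of UMIs, and these cells had 1400 to 2796 UMIs and mitochondrial shares of 3.62% to 5.45%. The same was so in 610 of 10024 plasma-positive and 805 of 9671 plasma-negative 0-UMI cells. Doublets were kept. Scrublet's own threshold marked 0 cells, so it had not worked. Taking the highest-scoring cells at the expected rate would remove 0 of 26 and 3 of 64 members, and the median score was 0.078 and 0.143 in members against 0.194 and 0.190 in 0-UMI cells. Cell barcodes were not used here, and no expression profile occurred in both libraries.

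**Figure D1:**
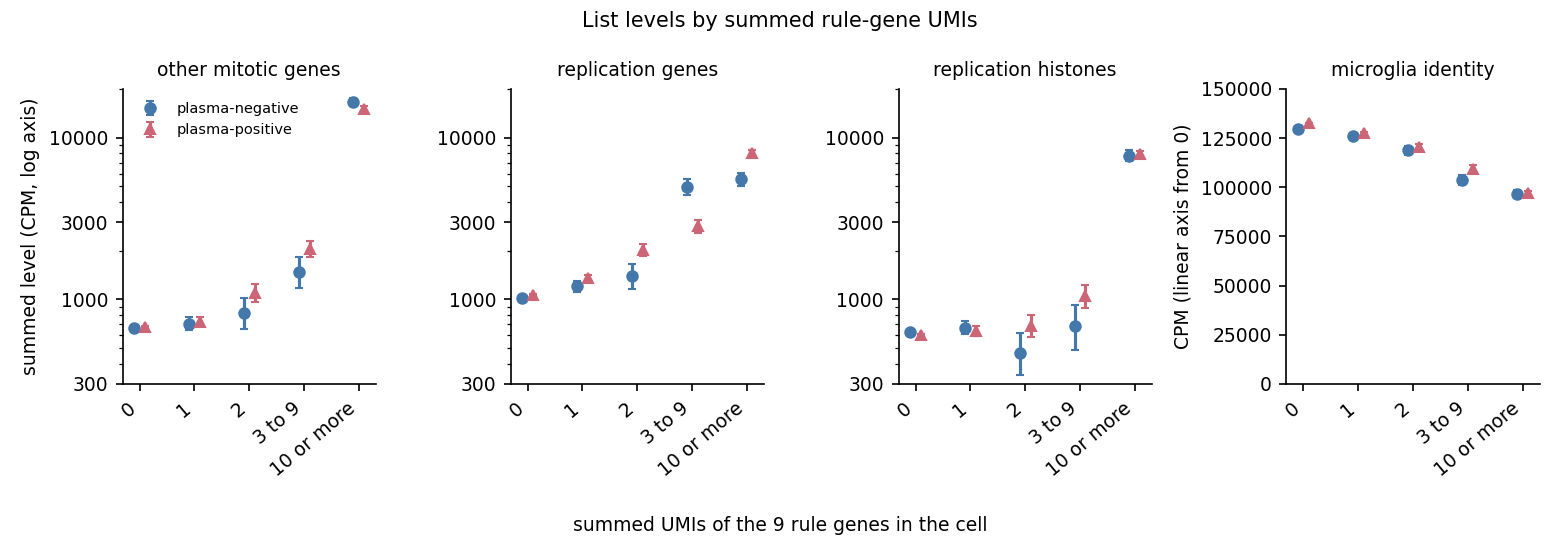
Summed levels of 4 gene lists in cells grouped by their summed UMIs of the 9 rule genes (x axis), in CPM, for the plasma-negative (blue circles) and plasma-positive (red triangles) library, with exact 95% Poisson intervals of counting error. The first 3 panels have log axes and the microglia identity panel a linear axis from 0. Mitotic genes outside the rule stay at or below 1095 CPM up to 2 UMIs and reach 16603 and 15106 CPM at 10 or more UMIs, while identity genes are lowest there.

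Exactly 3 UMIs were found in 6 and 6 members, and 23 and 39 cells stood just outside with 2 UMIs. The 95 mitotic genes outside the rule (35 of the kinetochore and its checkpoint, 36 of the spindle and cytokinesis, 24 of mitotic entry and exit) summed to 1471 and 763 CPM at 3 UMIs and to 823 and 1095 CPM at 2 UMIs. Replication and nucleotide genes differed more across the threshold in the plasma-negative library, at 6077 CPM (5350 to 6875) at 3 UMIs against 1390 CPM (1165 to 1645) at 2, while in the plasma-positive library they stood at 1940 and 2018 CPM. Interferon-induced genes stood at 6010 CPM at 3 UMIs against 1709 CPM at 2 in the plasma-positive library, but 1 cell held 167 of the 189 UMIs at 3 and 1 cell 153 of the 409 at 2. Without these cells the levels were 883 CPM (554 to 1337) and 1100 CPM (970 to 1244), so the direction rested on single cells. In the plasma-negative library the interferon sum was 265 and 720 CPM. At 0 UMIs the 95 mitotic genes summed to 662 and 672 CPM, at 3 to 9 UMIs to 1480 and 2040 CPM, and at 10 or more to 16603 and 15106 CPM. The larger step in the other mitotic genes thus lay above the threshold. Histone genes made at replication followed the same course, with 626 and 600 CPM at 0 UMIs, 679 and 1043 CPM at 3 to 9 and 7744 and 7892 CPM at 10 or more. Replication and nucleotide genes were already at 4962 and 2825 CPM at 3 to 9 UMIs, against 1015 and 1065 CPM at 0, and reached 5550 and 8018 CPM at 10 or more. The rule genes seen also differed on the 2 sides of the threshold. Among cells with 1 or 2 UMIs, Cdk1 was the gene found in 67 of 163 and 127 of 274 cells and Cenpf in 51 and 49, whereas Mki67 was found in 2 and 11 and Top2a in 9 and 30.

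Across all genes, 4139 reached 50 CPM in members or in 0-UMI cells. Of these, 340 (8.21%) were called at least 2-fold higher in members in both libraries. A further 28 (0.676%) were at least 2-fold lower in both. Of the 340, 165 belonged to the cell cycle and chromatin lists described below and 175 did not. In these calls a count of 0 stood at 3 UMIs, so a gene absent from the members of a library could be called higher there. Cxcl10 was called so, with 0 UMIs in plasma-negative members against 9.15 CPM in plasma-negative 0-UMI cells. How many other genes entered this way was not counted. The median log2 ratio over the 9041 genes at 10 CPM or more was 0.03, so about as many genes lay above equality as below. List genes under 10 CPM in both classes were left out of the counts below, and a gene that reached 10 CPM only through the members had to be higher in them. The minimum of 50 CPM for the 2-fold counts worked the same way. A list gene that reached it only through the members had to be higher in them over both libraries summed. The rule used this contrast, and the counts below are read against these shares only as a description.

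Kinetochore and checkpoint genes, which hold chromosomes to the spindle and delay separation until all are attached, were higher in members for 35 of 35 genes, with a median log2 ratio of 6.68. Of the 24 that reached 50 CPM, 23 were at least 2-fold higher in both libraries. Their summed level was 3358 and 3459 CPM, against 272 and 263 CPM in 0-UMI cells. Bub1, a checkpoint kinase, had 8 and 33 UMIs in members, in 6 and 19 cells, and 0 UMIs in the reference. Knl1, the scaffold on which Bub1 sits, had 136 UMIs in 43 members and 13 UMIs in the whole reference. Cenpm, of the inner kinetochore, had 32 UMIs in 17 members and 1 in the reference, a log2 ratio of 12.10 with a counting interval of 9.52 to 17.45. Hjurp, which loads the centromeric histone Cenpa, differed less, at 289 and 366 CPM against 59.6 and 54.3 CPM. Zwint was the member of this list with the lowest ratio, at 7.05 and 55.5 CPM against 29.4 and 30.7 CPM, so that the libraries differed in direction.

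Spindle and cytokinesis genes were higher for 36 of 36, with a median log2 ratio of 7.39, and 26 of the 27 at 50 CPM were 2-fold higher in both libraries. Their sum stood at 4585 and 4288 CPM in members and 193 and 205 CPM in the reference. Prc1, which bundles the central spindle, was the most abundant at 628 and 537 CPM in 14 and 36 cells, against 0.802 and 0.648 CPM. Hmmr, a spindle assembly protein, stood at 374 and 330 CPM in 11 and 33 cells, and Nusap1, which binds spindle microtubules, at 254 and 333 CPM in 9 and 33. The kinesin motors Kif11, which separates the poles, Kif23, of the midbody, and Kif4, of chromosome arms, gave 88, 65 and 34 UMIs in members and 8, 5 and 3 in the 19695 reference cells. Aspm, at the spindle poles, was found in 33 members and Cep55, needed for the final cut between daughters, in 32. Numa1, which also works in the interphase nucleus, had a log2 ratio of 0.21 (-0.17 to 0.56) and was the lowest of the list.

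Genes of mitotic entry and exit were higher for 24 of 24, with a median log2 ratio of 5.53, and 14 of the 14 at 50 CPM were past 2-fold in both libraries. Pbk, a mitotic kinase, gave 28 and 77 UMIs in members, in 12 and 28 cells, and 0 in the reference. With the pooled reference set to 3 UMIs, its log2 ratio was 12.23. The lower counting limit, taken with 0 UMIs in the reference, was 11.90. Melk, a kinase, and Cdca3, which triggers degradation at mitotic entry, were found in 20 and 45 members. Ube2s, which extends the ubiquitin chains that Ube2c starts, stood at 402 and 376 CPM against 59.6 and 57.6 CPM, and Cks2, a Cdk1 adaptor, at 247 and 209 CPM against 18.7 and 20.3 CPM. Pttg1, the securin that guards cohesin, stood at 49.4 and 47.9 CPM against 43.9 and 46.5 CPM, a log2 ratio of 0.09 (-0.53 to 0.64). Among condensin and cohesin genes 16 of 17 were higher, with a median log2 ratio of 2.70, and 12 of 16 were past 2-fold in both libraries. The condensin core Smc2 stood at 346 and 368 CPM against 13.8 and 13.5 CPM and Smc4 at 289 and 260 CPM against 11.3 and 11.2 CPM. The cohesin core Smc1a was at 310 and 320 CPM against 121 and 118 CPM, a smaller difference, and Nipbl, the cohesin loader, was lower, at 134 and 192 CPM against 203 and 194 CPM. Esco2, which locks cohesin during replication, had 110 UMIs in 34 members and 7 in the reference.

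The same cells were high in transcripts of DNA copying. DNA replication genes were higher for 51 of 51, with a median log2 ratio of 3.18, and 30 of the 31 at 50 CPM were past 2-fold in both libraries. Their sum stood at 3986 and 4379 CPM against 607 and 645 CPM. Atad2, a chromatin factor of replicating DNA, stood at 395 and 396 CPM against 16.8 and 18.1 CPM. Pcna, the clamp that holds polymerases on DNA, stood at 176 and 240 CPM against 31.7 and 33.2 CPM, in 13 and 28 cells. Nucleotide supply genes were higher for 19 of 20 (median log2 ratio 1.69). The difference was wide for Rrm2, the regulated subunit of ribonucleotide reductase, with 63 UMIs in 28 members and 2 in the reference, a log2 ratio of 12.08 (10.16 to 15.15). Its partner Rrm1 differed by 3.65 (3.31 to 3.98) on the log2 scale. Gart, of purine synthesis, differed by -0.04 (-0.80 to 0.62).

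Replication histone genes, whose copies are nearly identical so that their counts may be shared between copies, numbered 67, of which 40 reached 10 CPM in either class. Of these 39 were higher, with a median log2 ratio of 4.30. The sum stood at 4881 and 5276 CPM against 626 and 600 CPM, and 19 of the 20 at 50 CPM were past 2-fold in both libraries. The linker histone Hist1h1b stood at 508 and 633 CPM in members, in 7 and 31 cells, against 0.238 and 0.299 CPM, while the linker histone Hist1h1e, present in resting cells, stood at 466 and 492 CPM against 122 and 110 CPM. Per cell, the histone sum had a median of 1.09 and 1.32 UMIs per 1000 in members and reached 27.2 and 50 UMIs per 1000, so a minority of members held most of it. Replication histone messages mostly lack a poly(A) tail, and how the kit captured them was not tested. Chromatin proteins were higher for 29 of 30, with a median of 1.4. H2afz, a replacement histone, stood at 2046 and 2203 CPM against 312 and 336 CPM and was found in 87 of 90 members. Hmgb1 stood at 1495 and 1538 CPM against 580 and 609 CPM, and H3f3b, a histone made outside replication, at 1637 and 1447 CPM against 1018 and 1022 CPM. For tubulin and stathmin genes 10 of 13 were higher. Stmn1, which regulates microtubule turnover, stood at 1432 and 1417 CPM against 29.4 and 35.6 CPM, in 23 of 26 and 59 of 64 cells, and Tuba1b at 1249 and 1155 CPM against 294 and 284 CPM. Stmn1 was therefore detected in more members than any of the 9 rule genes.

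**Figure D2:**
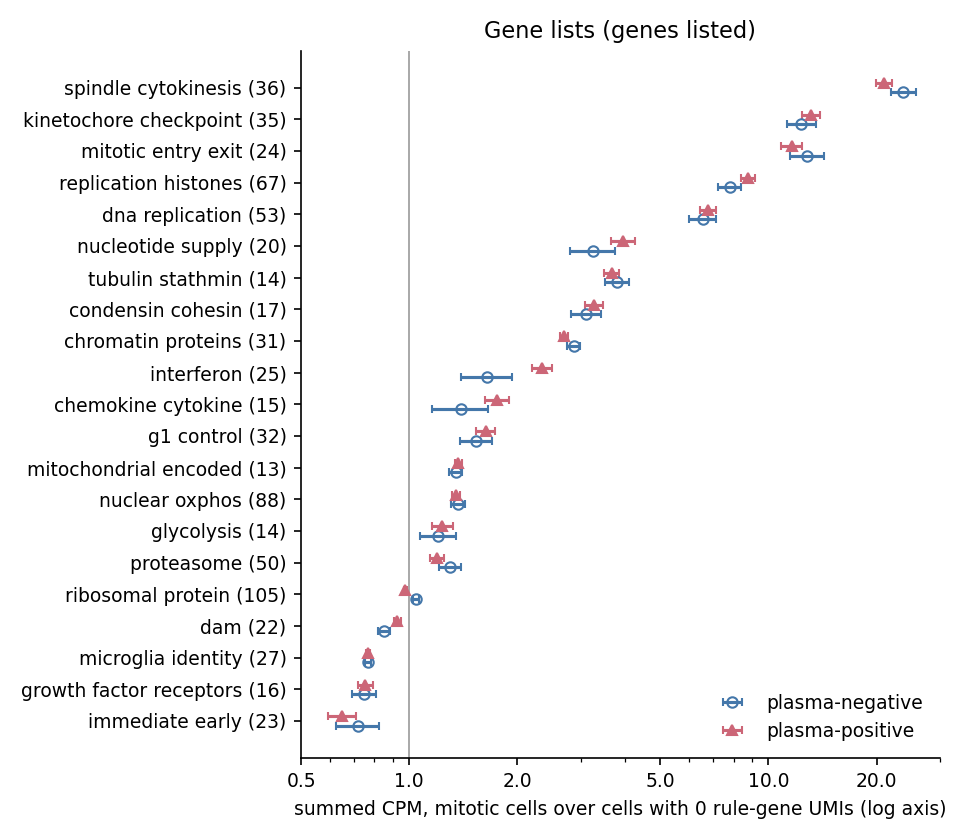
Summed level of 21 gene lists in members divided by that in 0-UMI cells (x axis, a ratio on a log axis), for the plasma-negative (blue open circles) and plasma-positive (red triangles) library, with exact 95% counting intervals and the number of listed genes in brackets. The line marks a ratio of 1. Spindle, kinetochore and mitotic entry and exit lists lie at 11.6 to 23.8, replication histones at 7.80 and 8.80, and microglia identity at 0.768 in both libraries.

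Genes that control entry into the cycle were mixed, with 19 of 30 higher and a median log2 ratio of 0.55. Ccne2, the cyclin that starts DNA copying, stood at 169 and 187 CPM against 1.69 and 1.47 CPM, in 9 and 21 members, and E2f7, a repressor made in replicating cells, had 27 UMIs in 17 members and 1 in the reference. The D-type cyclins, which carry growth signals into the cycle, were not among the higher genes. Ccnd1 stood at 106 and 90.8 CPM against 166 and 151 CPM. Ccnd3 stood at 49.4 and 32.8 CPM against 45.8 and 45.0 CPM. Ccnd2 had 0 UMIs in all members and 0.891 and 0.848 CPM in the reference, too low for a ratio at this depth. The upper counting limit of its pooled log2 ratio was 3.02. Cdkn1a (chr17:29090976-29100727 on GRCm38), the p21 inhibitor of cyclin-dependent kinases, was high in members. It gave 60 and 118 UMIs in 17 of 26 and 35 of 64 cells, at 423 and 298 CPM, against 26.6 and 15.5 CPM in 0-UMI cells. With every cell thinned to 2000 UMIs by random draw, to set cells of different depth on 1 footing, a Cdkn1a UMI was found in 40% (21.1 to 61.3) and 35.6% (23.6 to 49.1) of members and in 4.06% and 2.72% of 0-UMI cells. Unthinned, over the same cells, the shares were 64.0% and 55.9% against 6.65% and 5.09%. The thinning left out 1 and 5 members and 1601 and 1234 reference cells. Cdkn2c, the p18 inhibitor, stood at 134 and 136 CPM against 9.03 and 8.08 CPM, and the antiproliferative Btg1 at 240 and 275 CPM against 370 and 357 CPM.

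Genes that define microglia were lower in members but present. Of 27 identity genes 26 were lower, with a median log2 ratio of -0.42, and the sum stood at 99483 and 101774 CPM against 129497 and 132558 CPM. That was 0.768-fold (0.756 to 0.781) and 0.768-fold (0.760 to 0.775). Cst3, the cystatin that is the most abundant transcript of the list, stood at 38557 and 42431 CPM against 50847 and 54627 CPM. C1qa, of the complement starter C1q, differed by -0.36 (-0.41 to -0.32) on the log2 scale. Fcrls was the exception, at 1559 and 1785 CPM against 1372 and 1533 CPM. Slc2a5, a sugar transporter, was the lowest of the list at 141 and 151 CPM against 307 and 321 CPM. CPM values share 1 total, and cycle and chromatin genes took more of it in members. Scaling by TMM, which centres the bulk of genes, moved the median of all genes from 0.03 to -0.07 and that of the identity list to -0.52. Genes of growth factors and of growth factor and cytokine receptors were lower for 11 of 14 (median -0.46). The highest of the list was the growth factor Csf1, with a log2 ratio of 1.86 (1.16 to 2.48). It gave 21 UMIs in 6 members, 12 of them in 1 cell. Csf1r, the receptor on which microglia depend, stood at 2420 and 2508 CPM against 3059 and 3130 CPM, and Tgfbr1, which receives the signal that keeps microglial identity, at 903 and 965 CPM against 1390 and 1343 CPM. Immediate early genes were lower for 11 of 13, with Rhob at 303 and 320 CPM against 718 and 657 CPM. Jun differed in direction between the libraries, at 289 and 164 CPM against 207 and 182 CPM.

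The 10 genes of lowest ratio among the 28 were Lpin1, Gm31243, Pitpnc1, Akna, Zbtb4, Peli2, Etv5, P2rx4, Slc1a3 and Sox4. Their log2 ratios ran from -1.82 for Lpin1, a regulator of lipid synthesis, to -1.41 for Sox4, a transcription factor. Counts were small, from 8 UMIs for Lpin1 and Gm31243 to 44 UMIs for Sox4 over all 90 members. Slc1a3, a glutamate transporter, stood at 14.1 and 73.1 CPM against 165 and 147 CPM, so its difference came more from the plasma-negative members.

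Energy and protein turnover genes were moderately higher. All 13 mitochondrially encoded genes were higher, with a median log2 ratio of 0.54 and a sum of 16175 and 19413 CPM against 12004 and 14171 CPM. The mitochondrial filter used the same genes, which caps the share in each cell at 10%. Nuclear genes of oxidative phosphorylation were higher for 69 of 80 (median 0.41), and proteasome genes for 41 of 48 (median 0.32). Glycolysis genes divided, with 7 of 12 higher. Gapdh stood at 1016 and 996 CPM against 457 and 481 CPM, and Hk2, the first enzyme of the path, at 247 and 298 CPM against 513 and 481 CPM. Ribosomal protein genes were near equal, with 52 of 91 higher and a median of 0.03, a sign that TMM scaling turned to -0.08.

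Interferon-induced genes numbered 25, of which 18 reached 10 CPM. Of these 15 were higher, with a median log2 ratio of 0.72, which was 0.13 without the members described below that pass neither a mitosis nor a replication level. Of the 8 at 50 CPM, 1 was at least 2-fold higher in both libraries, and a single gene held much of the sum. The list summed to 1044 and 2428 CPM in members against 634 and 1034 CPM in 0-UMI cells. Ifi27l2a (chr12:103442167-103443680 on GRCm38), an interferon-induced mitochondrial and nuclear membrane protein gene, made up 466 and 1046 CPM of it, against 17.0 and 78.9 CPM. The gene lies among near-identical relatives, and how reads shared between copies were assigned was not given in the sources used here. It gave 66 and 415 UMIs, in 11 of 26 and 33 of 64 members, with up to 12 and 88 UMIs in 1 cell. Thinned to 2000 UMIs, 32.0% (14.9 to 53.5) and 42.4% (29.6 to 55.9) of members had a UMI, against 2.54% and 8.16% of 0-UMI cells. Unthinned the shares were 44.0% and 50.8% against 4.11% and 11.7%. A background share from cells of a type that lacks the gene was not computed. Bst2, an interferon-induced surface protein, stood at 190 and 343 CPM against 176 and 217 CPM, and Isg15 at 0 and 22.7 CPM against 12.03 and 29.6 CPM. Ifitm3, which blocks virus entry, stood at 21.2 and 126 CPM against 12.98 and 54.8 CPM, in 3 and 6 members, with 22 UMIs in 1 cell. Outside the 90, the interferon sum was 869 and 1613 CPM in cells with 1 rule UMI and 720 and 1709 CPM in cells with 2. It was 662 and 3928 CPM at 3 to 9 UMIs and 1305 and 1501 CPM at 10 or more. Of the 595 plasma-positive UMIs at 3 to 9, 301 lay in 2 of 26 cells, and the level without the 2 was 2186 CPM (1944 to 2451).

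Chemokine genes had no common direction, with 5 of 10 higher. Ccl12, a monocyte attractant, stood at 275 and 872 CPM against 172 and 372 CPM, in 18 and 48 members. Cxcl10 gave 56 UMIs, all plasma-positive, and 53 of these lay in 1 cell. Genes of disease-associated microglia were higher for 11 of 18, with a median of 0.27 that became -0.30 when only list genes at 50 CPM or more were taken. Their sum differed in sign from that median, at 0.851-fold (0.817 to 0.887) and 0.926-fold (0.905 to 0.947) of the 0-UMI cells. Apoe, the lipid carrier that is prominent in that state, was lower in members of both libraries, at 56.4 and 764 CPM against 169 and 1163 CPM. Of its 303 plasma-positive UMIs, 116 lay in 1 cell. The share of cells with an Apoe UMI went the same way as the level in the plasma-negative library and the other way in the plasma-positive one. Thinned to 2000 UMIs it was 8% and 30.5% of members against 11.7% and 25.9% of 0-UMI cells, and unthinned 16% and 40.7% against 16.6% and 36.5%. When cells with 2 UMIs of the rule genes were added, the pooled log2 ratio of Apoe turned from -0.30 to 0.16. Ctsd, a lysosomal protease, stood at 2293 and 3186 CPM against 4843 and 4916 CPM. All 55 UMIs of Mmp12, a protease outside the lists named after its values were seen, lay in 1 plasma-positive member.

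**Figure D3:**
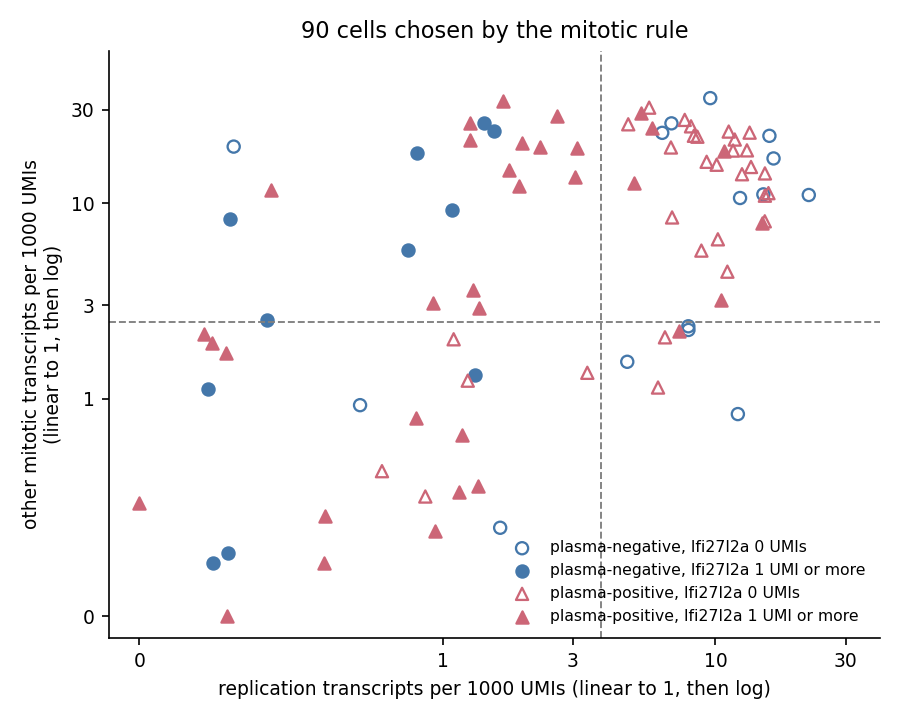
Each of the 90 members by its UMIs of replication and nucleotide genes (x axis) and of the 95 mitotic genes outside the rule (y axis), both per 1000 UMIs of the cell, on axes linear to 1 and logarithmic above. Circles are plasma-negative and triangles plasma-positive cells, and filled symbols have at least 1 UMI of Ifi27l2a. The dashed lines are the 99th percentiles of 0-UMI cells, 3.81 and 2.47 per 1000, and 38 members lie above both, 22 above the mitosis level alone, 7 above the replication level alone and 23 above neither.

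The label of the members was checked on the 95 mitotic genes the rule did not use, and on replication genes. For each the 99th percentile of the 0-UMI cells served as a level, 2.47 UMIs per 1000 for mitosis and 3.81 UMIs per 1000 for replication. These levels were set after the data were seen and mark ranges of a score, not cell types, and 8 and 2 members lay within 20% of them. Both levels were passed by 38 members (8 plasma-negative and 30 plasma-positive), the mitosis level alone by 22 (8 and 14), the replication level alone by 7 (4 and 3) and neither by 23 (6 and 17). So 60 of 90 members passed the mitosis level on genes outside the rule and 30 did not, of which 7 passed the replication level. By construction each level was passed by about 1% of the reference, and 17 of 19695 reference cells passed both. Among cells with 1 or 2 rule UMIs, 413 of 437 passed neither. Members past neither level had a median of 4 rule UMIs, and 21 of the 23 had under 10. In 8 of them no UMI of Top2a, Mki67, Cdk1 or Birc5 was found, and in 8 the sum came from a single gene. Cenpf was found in 17 of these 23 cells and made up 49 of their UMIs, against 24 of Mki67, 12 of Ccnb1 and 5 of Top2a.

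Members past the mitosis level lay on either side of the replication level, and the rule genes differed between these sets. Top2a stood at 1719 CPM (1553 to 1898) in members past both levels and 854 CPM (695 to 1039) in those past mitosis alone, and was higher past both levels in each library. Ccnb2, Hmmr and Cenpf had lower values past both levels than past mitosis alone in each library, with intervals that overlap in plasma-negative cells and are apart in plasma-positive cells. Ccnb2 stood at 174 and 394 CPM in plasma-negative and 171 and 366 CPM in plasma-positive cells, Hmmr at 473 and 837 CPM and at 352 and 850 CPM, and Cenpf at 971 and 1034 CPM and at 432 and 1138 CPM. Ccnb1 and Ube2c were lower past both levels in the plasma-positive library and not in the plasma-negative one. Ccnb1 stood at 37.4 CPM past both levels and 340 CPM past mitosis alone, against 224 and 172 CPM in plasma-negative cells from 9 and 7 UMIs. Ube2c stood at 251 and 680 CPM, against 722 and 689 CPM. Ccna2, the cyclin of the preceding steps, stood at 185 and 102 CPM. Hist1h1b stood at 1196 CPM in 30 of 38 cells and 418 CPM in 7 of 22 (37 of these 49 UMIs in 1 cell), and Rrm2 at 268 CPM in 26 of 38 cells and at 0 UMIs in all 22. Rrm2 is one of the genes that set the replication level, so its difference follows in part by construction of the split. The per-cell histone median was 8.93 UMIs per 1000 past both levels and 0.870 past mitosis alone. Cells past the replication level alone had few rule UMIs, with a median of 3, Pcna in 6 of 7 cells and Hmmr, Plk1 and Ccna2 at 0 UMIs. Pcna and Hmmr are on the lists that define this set, so their values here follow in part by construction.

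Identity genes had a median of 90.3 UMIs per 1000 in members past both levels, 103 past mitosis alone, 75.3 past replication alone and 121 past neither, against 127 and 130 in the 2 groups of 0-UMI cells. The members that passed neither level were thus near the reference in this measure. P2ry12, a purine receptor of resting microglia, was found in 34 of 38, 19 of 22, 7 of 7 and 23 of 23 cells of the 4 sets.

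**Figure D4:**
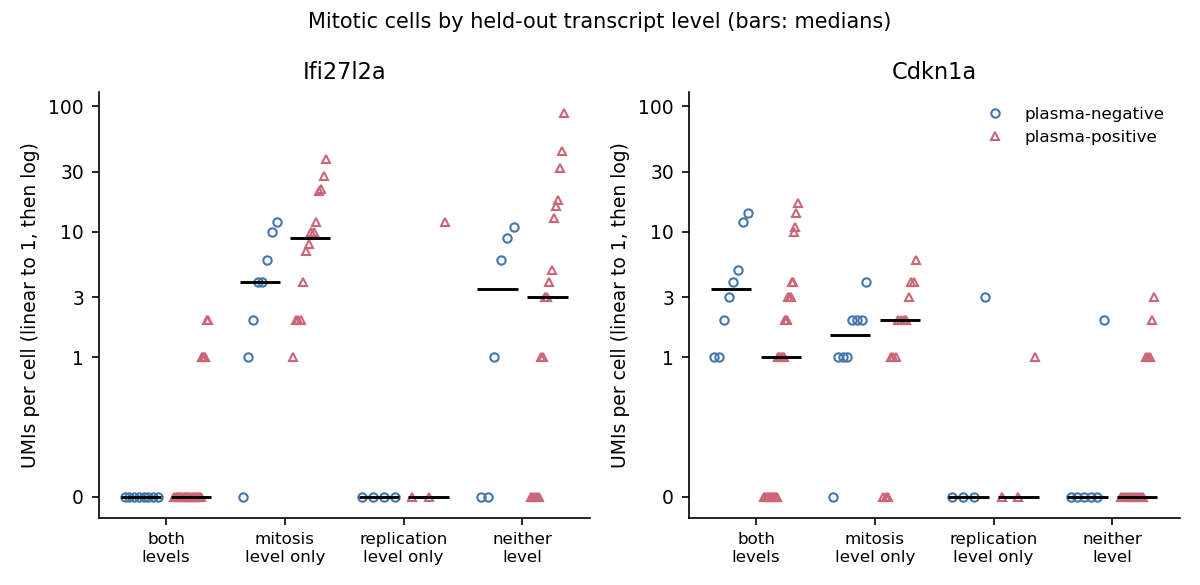
UMIs per cell (y axis, linear to 1 and logarithmic above) of Ifi27l2a and Cdkn1a in the 90 members, grouped by the levels they pass, with 1 point per cell, circles for plasma-negative and triangles for plasma-positive cells, and bars at the medians. Ifi27l2a is found in 6 of 38 cells past both levels and in 21 of 22 past mitosis alone, whereas Cdkn1a is found in 26 of 38 and 18 of 22 of them and in 6 of 23 past neither.

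Ifi27l2a and Cdkn1a were spread differently over these sets. Both were found together in 3 of 38 members past both levels, 17 of 22 past mitosis alone and 6 of 23 past neither. Ifi27l2a was found in 6 of 38 members past both levels, with 8 UMIs and 35.2 CPM (15.2 to 69.3). Past mitosis alone it was found in 21 of 22, with 206 UMIs and 1759 CPM (1527 to 2017). Past neither level it was found in 16 of 23, with 255 UMIs and 1836 CPM (1617 to 2075), and past replication alone in 1 of 7. Both libraries showed this. Past mitosis alone the gene was found in 7 of 8 plasma-negative cells (960 CPM) and 14 of 14 plasma-positive cells (2184 CPM), and past both levels in 0 of 8 and 6 of 30 cells. Cdkn1a was found in 26 of 38 members past both levels at 541 CPM (449 to 645), in 18 of 22 past mitosis alone at 350 CPM (251 to 475), in 2 of 7 past replication alone at 72.8 CPM (19.8 to 186) and in 6 of 23 past neither at 72.0 CPM (34.5 to 132). Its highest level was in plasma-negative cells past both levels, 1046 CPM in 8 of 8 cells, against 432 CPM in 18 of 30 plasma-positive ones. Members past neither level thus held less Cdkn1a than those past the mitosis level, and over both libraries the 0-UMI cells stood at 20.5 CPM.

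Other genes followed Ifi27l2a in part. Between the members below and above the replication level (45 and 45 cells), the log2 ratio was 4.67 (4.02 to 5.39) for Ifi27l2a, 3.12 (2.61 to 3.67) for Apoe, 2.53 (1.92 to 3.19) for Ramp1, a receptor accessory protein, 1.30 (1.06 to 1.55) for the protease Ctsl and 1.12 (0.75 to 1.49) for H2-K1, of class I antigen presentation. Ramp1 was found in 20 of 22 members past mitosis alone and 20 of 23 past neither, against 15 of 38 past both, and so was less tied to single cells than Apoe, found in 6 of 22, 9 of 23 and 13 of 38. Apoe reached 44 and 116 UMIs in its highest cells past mitosis alone and past neither, but 3 UMIs past both. It was found in 15 of 45 members below the replication level and in 15 of 45 above it. In plasma-negative members it gave 6 UMIs below that level and 2 UMIs above it. Ifitm3 had 0 UMIs in the 38 cells past both levels. At the other end were genes of DNA copying, by construction of the split, with Ccne2 at -6.46, Pcna at -3.87 and Mcm7 at -3.12. Without the 23 members past neither level the pooled log2 ratio of Ifitm3 to 0-UMI cells went from 1.46 to -0.25.

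**Figure D5:**
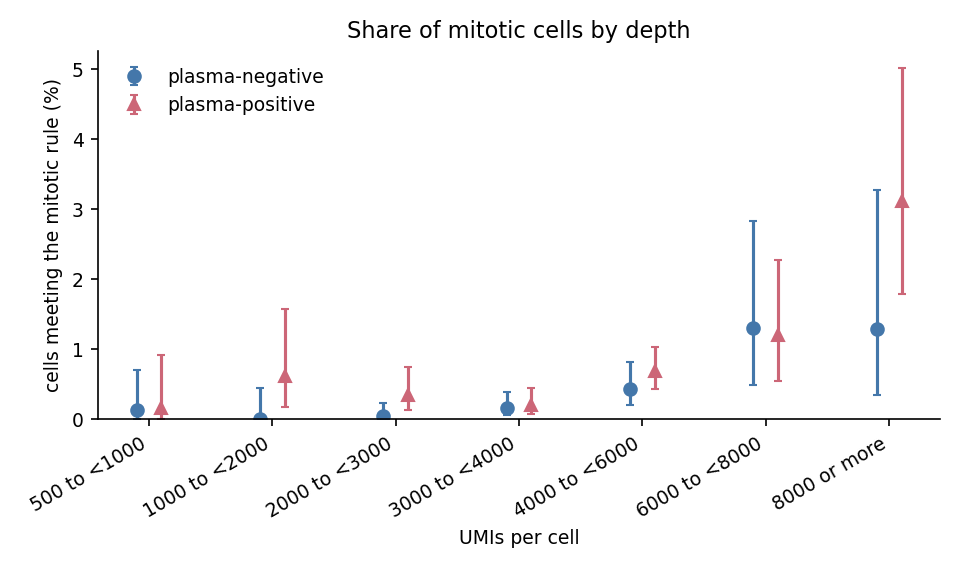
Share of cells that met the rule (y axis, percent) in bins of the cell's total UMIs (x axis), for the plasma-negative (blue circles) and plasma-positive (red triangles) library, with exact 95% binomial intervals. Shares are 0.428% and 0.686% from 4000 to below 6000 UMIs, and at 8000 or more UMIs 1.29% and 3.12% with wide intervals.

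In the plasma-negative library 0.264% of cells (0.172 to 0.386, Clopper-Pearson) met the rule, and in the plasma-positive library 0.618% (0.476 to 0.788), a ratio of 2.34 (1.46 to 3.85). The plasma-positive library was deeper, and in both libraries the share was above 1% only in cells of 6000 UMIs or more. With every cell thinned to 1000 UMIs, 15 of 9064 and 33 of 9759 cells met the rule (0.165% and 0.338%, ratio 2.04, 1.08 to 4.05). Thinned to 2000 UMIs, 14 of 8249 and 40 of 9109 did (0.17% and 0.439%, ratio 2.59, 1.38 to 5.15). Weighted to the same depth bins the shares were 0.309% and 0.566%, a ratio of 1.83. No interval was computed for that ratio, the 2 libraries' intervals overlap in every depth bin, and the replicate error is not known. Within bins the direction was not uniform. From 3000 to below 4000 UMIs the shares were 0.167% (5 of 2994) and 0.207% (6 of 2904), and from 6000 to below 8000 UMIs 1.31% (6 of 458) and 1.20% (9 of 747). From 1000 to below 2000 UMIs they were 0 of 815, which allows up to 0.452% by the Clopper-Pearson interval, and 4 of 650. At least 1 rule UMI was found in 1.92% and 3.26% of cells (ratio 1.70) and at least 10 in 0.162% and 0.367% (ratio 2.26). Counting the members past the mitosis level gave 16 and 44 cells, 0.162% (0.0928 to 0.263) and 0.425% (0.309 to 0.570), a ratio of 2.62 (1.45 to 4.97). Past neither level the members numbered 6 and 17, 0.0609% and 0.164% of cells, a ratio of 2.70 (1.01 to 8.35).

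Sums of cycle genes differed less between the sorts than some single cycle genes did. Plasma-positive over plasma-negative, the ratio in members was 1.03 (0.927 to 1.15) for the kinetochore sum, 0.935 (0.854 to 1.03) for the spindle sum, 1.1 (0.999 to 1.21) for DNA replication and 1.25 (1.06 to 1.48) for nucleotide supply. For the 9 rule genes it was 0.887 (0.805 to 0.979). Among single rule genes, Ube2c had a log2 ratio of -0.64 (-1.13 to -0.15), lower in plasma-positive members, and Cenpf had a log2 ratio of -0.48 (-0.83 to -0.11). Among members past both levels, replication histones summed to 14819 CPM (13652 to 16059) in plasma-negative and 9151 CPM (8722 to 9594) in plasma-positive cells, with 243 of the 595 plasma-negative UMIs in 1 cell. Members past both levels were 30.8% (14.3 to 51.8) of the 26 and 46.9% (34.3 to 59.8) of the 64, with overlapping intervals.

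Single genes between the sorts rested on few UMIs. Of 4271 genes at 50 CPM in either set of members, 203 (4.75%) were at least 2-fold higher and 209 (4.89%) at least 2-fold lower in plasma-positive members. Over all 4271 genes, at any fold, the counting interval lay above equality for 121 genes and below it for 168. These intervals leave out the spread between cells. With so many genes, some intervals exclude equality by counting error alone. How many did so was not computed, so these counts are not read as differences between the sorts. Among 0-UMI cells 4 of 3538 genes (0.113%) were 2-fold higher and 0 (0%) lower. The members of the 2 sorts held 141763 and 396691 UMIs in all, far fewer than the 0-UMI cells, and the part of this depth in the counts was not tested. Apoe led the higher genes, with a log2 ratio of 3.76 (2.76 to 4.98) from 8 UMIs in 5 cells against 303 UMIs in 25 cells. The same ratio was 2.78 in the 0-UMI cells, so Apoe differed between the sorts there too. Of the other 7, Dnajc13, Cd83, Ifi204, Trmt1, Dnajb9, Cntln and Itpkb each had 1 UMI in the plasma-negative members, and of these Ifi204 had the largest ratio in 0-UMI cells, 1.41. A count of 0 was set to 3 UMIs in this ranking, and a count of 1 was left as it was. Cntln, with 1 UMI against 24, thus ranked above Cxcl10, with 0 UMIs against 56. The place of these 7 genes among the highest therefore rests in part on that setting. The lowest 8 were Nemp1, Snhg9, Cwc25, Fem1b, Gdpd3, Dnajc4, Yars and Gnl3l, with 3 to 5 UMIs each in the plasma-positive members and log2 ratios from -3.07 for Nemp1 to -2.16 for Gnl3l. In 0-UMI cells these 8 lay between -0.40 for Snhg9 and 0.13 for Gdpd3.

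Some lists that differed between the sorts in 0-UMI cells differed the same way in members, and others did not. The interferon sum was 2.33-fold (1.95 to 2.78) higher in plasma-positive members and 1.63-fold higher in plasma-positive 0-UMI cells. Without the 2 members of each library that held most of its UMIs (35 and 301) the ratio in members was 1.97 (1.61 to 2.43). In members with 3 to 9 rule UMIs the sum stood at 3928 CPM against 662 CPM, with medians of 6.5 and 2 UMIs per cell, and at 2186 CPM against 280 CPM without the 2 highest cells of each library. In those with 10 or more it was 1501 CPM (1351 to 1662) against 1305 CPM (1072 to 1572), where the intervals overlap. For chemokines the ratios were 1.86 (1.54 to 2.28) and 1.48, for genes of disease-associated microglia 1.23 (1.17 to 1.29) and 1.13, and for mitochondrially encoded genes 1.20 (1.14 to 1.26) and 1.18. Replication histones stood at 0.958 in 0-UMI cells and 1.08 (0.991 to 1.18) in members, chromatin proteins at 1.04 and 0.972 (0.927 to 1.02) and cycle entry control genes at 0.938 and 0.996 (0.882 to 1.13). Single genes varied more. Ifi27l2a was higher by 1.17 (0.79 to 1.57) on the log2 scale in plasma-positive members and by 2.22 in 0-UMI cells, and Ccl12 by 1.66 (1.18 to 2.18) and 1.11. Cdkn1a was lower in plasma-positive members, at -0.51 (-0.97 to -0.04), and in 0-UMI cells, at -0.78. Identity genes were at 1.02 (1.00 to 1.04) in members and 1.02 in 0-UMI cells. Whether the sorts' difference in members departs from that in other cells was not tested.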

How the data were processed

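Hypothalamic microglia of 2 sorts, 1 library each, were analysed. Each deposited matrix held unnormalized UMI counts. Its header names Cell Ranger 6.1.2 as the writer, and the submitters' processing notes name version 3.0.1. Genome build, annotation, strand and multi-mapped reads were not given in the sources used here. Of 31053 identifiers 31011 were found in GENCODE M21 (GRCm38), used for coordinates only, and 35 symbols belonged to more than 1 identifier. Per-sample columns left unmapped numbered 0.

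Members and gene lists were chosen with earlier results of these data known. Counts were summed per class and library. Genes at 50 CPM or more in either class were compared without an added pseudocount, and called at 2-fold in both libraries. List medians used genes at 10 CPM. In the calls, in the list medians and between the sorts, a count of 0 was set to 3 UMIs. Named genes were the rule genes, the 20 highest and 10 lowest ratios, the 8 highest and lowest between sorts, each list's highest, lowest and up to 4 most abundant members, and Apoe, Cdkn1a, Ifitm3, Ifi27l2a, Ccl12, Ccnd1, Ccnd2 and Ccnd3. Some items are not reported here. Mmp12 and the genes compared between the replication and mitosis sets were picked after their values were seen. Intervals were exact Poisson, Clopper-Pearson or conditional binomial, and no test was run. The arithmetic was tested on simulated data. Alternatives covered the threshold, doublets, depth, scaling and reference. Python 3.11.15, numpy 2.4.6, scipy 1.17.1, pandas 2.3.3, scanpy 1.11.5, anndata 0.12.19 and matplotlib 3.10.9 were used.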

Additional observations from a re-analysis of the deposited data

How the results depend on the processing

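Each result was recomputed with other choices, and 522 of 765 recomputed values stayed within the counting interval (single values), 1.5 times (counts) or 1 SD between the libraries (list medians) of the first value. The sign was the same in 747 and changed in 18, most of them values near 0. The higher share of members in the plasma-positive library kept its direction in every setting run. A threshold of 2 UMIs gave shares of 0.497% and 0.994%, thinning to 1000 UMIs 0.165% and 0.338%, thinning to 2000 UMIs 0.17% and 0.439%, and leaving out members past neither level 0.203% and 0.454% (ratio 2.24, 1.30 to 3.98). The count of genes 2-fold higher in members (340) became 195 with 2 UMIs, 754 at 10 CPM and 74 at 200 CPM. The count of lower genes (28) became 3 with 2 UMIs, 65 with 5 UMIs, 68 without members past neither level, 51 with mean CPM over cells, 50 with TMM scaling, 117 at 10 CPM and 7 at 200 CPM. Taking 1 library alone gave 429 to 547 higher and 84 to 253 lower genes, the plasma-negative library giving the larger counts, since a gene then had to pass in 1 library only. Between the sorts, the higher and lower counts (203 and 209) became 93 and 138 with 2 UMIs, 378 and 396 with 5 UMIs, 314 and 398 without members past neither level, 322 and 354 with mean CPM over cells, 816 and 789 at 10 CPM, and 4 and 6 at 200 CPM. The cause was not tested, save that other minimums test other genes. Apoe turned to 0.16 with 2 UMIs, Ifitm3 to -0.25 without members past neither level, and the disease-associated list to -0.30 at 50 CPM. The chemokine list (0.15) turned to -0.49 with 5 UMIs, -0.36 without members past neither level and -0.45 in the plasma-positive library alone, and the ribosomal list to at lowest -0.08 (TMM). Ccnd3 and Jun changed sign within their counting intervals. The median was above 0 for 16 to 18 of 21 lists. Leaving out members past neither level, the 4 low in ribosomal UMIs or the cells with most interferon UMIs, and averaging the libraries' log2 ratios, were chosen after seeing the data. No paired analysis was possible because each sort has 1 library. Depth limits single genes in members, where 26 plasma-negative cells give 141763 UMIs.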
